A study of Mus musculus with 6 samples.

Results

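The 10 genes described here encode enzymes, membrane transporters and matrix proteins that set where and how fast bone mineral forms. The enzymes and transporters are the phosphate-releasing *Alpl* and *Phospho1*, the sphingomyelinase *Smpd3*, the pyrophosphate suppliers *Enpp1* and *Ank*, and the phosphate transporters *Slc20a1* and *Slc20a2*. The others are the matrix proteins *Spp1* and *Ibsp* and the osteoblast membrane protein *Ifitm5*. The 10 genes were chosen by symbol, with earlier results of these data known. All of them were found among the 55401 gene identifiers of the count tables. All 10 had enough reads to be tested. RNA had been sequenced from whole tibias of male mice at 8 weeks of age, with 3 libraries labelled Osterix-Cre; Atrxf/y (Atrx-cKO) and 3 labelled Atrxf/y (control). Every library thus came from a floxed *Atrx* allele on the single X chromosome, and the groups differed in the Osterix-Cre transgene. *Atrx* encodes a chromatin remodeler of the SNF2 family. The transgene is a Tet-off line in which the *Sp7* (Osterix) promoter drives Cre in preosteoblasts, and doxycycline kept Cre silent from conception until 3 weeks of age. Because no control carried the transgene, its presence and the loss of *Atrx* cannot be told apart in these libraries.

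Bone mineral is a calcium phosphate that is first laid down in and around matrix vesicles shed by osteoblasts and hypertrophic chondrocytes, and then spreads along collagen fibrils. Inorganic pyrophosphate blocks crystal growth, so the balance between enzymes that make pyrophosphate and enzymes that cleave it into phosphate decides whether mineral can form. The SIBLING proteins, secreted acidic glycoproteins encoded side by side on 1 chromosome, bind the growing mineral and either nucleate it or restrain it.

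Each library held between 50977777 and 70571655 counts on genes, which were 42.8% to 43.8% of the counted reads or read pairs in each table. *Atrx* itself stood at 163 ± 9.54 CPM (counts scaled to a fixed library total) in Atrx-cKO and 169 ± 4.98 CPM in control (SD, n = 3 each). The deposited count covers the whole gene in all cell types of the tibia, so it does not check the deletion. Markers of the labelled tissue were present in every library, with all 8 osteoblast and all 6 osteocyte markers above 0. The labels call the libraries of a group replicates without naming the mice, so p-values measure the spread between these libraries. Levels are given as CPM after TMM scaling, which corrects for differences in library composition. With the study's thresholds, a gene was called changed when edgeR's quasi-likelihood test gave an adjusted p under 0.05 and its log2 fold change was 1 or more in size.

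None of the 10 genes was called changed between Atrx-cKO and control tibias, against 3 of 20636 genes tested (0.0145%). DESeq2 also gave none of the 10 an adjusted p under 0.05, against 0.155% of all genes. Fitted log2 fold changes, Atrx-cKO over control, were under 0 for 9 of the 10 genes, where 48.8% of all genes tested lay under 0. Their median was -0.24, with a range from -0.51 for *Ibsp* to 0.011 for *Slc20a1*, and the median over all genes tested was 0.0050. At an unadjusted p under 0.05 in edgeR, 3 of the 10 genes (*Ibsp*, *Phospho1* and *Ank*) were lower in Atrx-cKO, against 2.05% of all genes, and 0 were higher, against 1.59%. The same 3 genes were lower with no overlap between the groups, against 4.01% of all genes, and 0 were higher with no overlap, against 4.30%. The 95% interval of every fold change, unadjusted for the number of genes, lay within a 2-fold change in either direction. In bulk tissue, fewer cells of a type and less RNA per cell cannot be told apart.

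**Figure D1:**
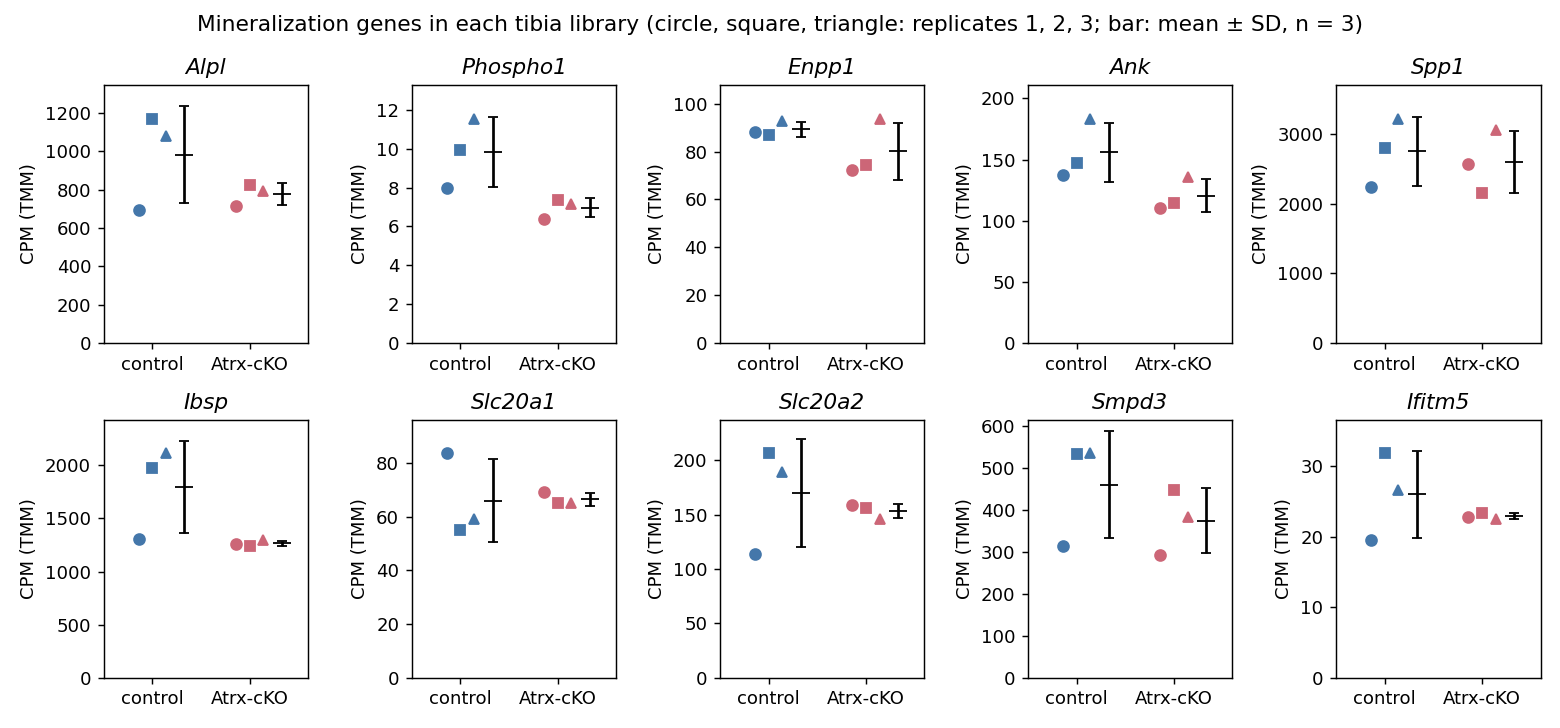
CPM after TMM scaling (vertical axes, each from 0) of the 10 mineralization genes in the 3 control and 3 Atrx-cKO tibia libraries, with the mean ± SD of each group beside its points. The groups do not overlap for *Phospho1*, *Ank* and *Ibsp*, and in 8 of 10 genes control replicate 1 (circle) is the lowest of the controls.

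Among the phosphate-releasing enzymes, *Alpl* (ENSMUSG00000028766, chr4:137741733-137796384, minus strand, GRCm38) encodes tissue-nonspecific alkaline phosphatase, which cleaves pyrophosphate on the surface of osteoblasts and matrix vesicles. It stood at 694, 1171 and 1080 CPM in control replicates 1, 2 and 3 and at 715, 827 and 791 CPM in Atrx-cKO replicates 1, 2 and 3. Control replicates 2 and 3 were above every Atrx-cKO library, while control replicate 1 was the lowest of all 6, so the groups overlapped. The group means were 778 ± 57.0 CPM in Atrx-cKO and 982 ± 253 CPM in control (SD, n = 3 each). The log2 fold change was -0.34 (SE 0.19, 95% interval -0.78 to 0.11, edgeR adjusted p = 0.992), a difference smaller than the SD of the controls. None of the other alkaline phosphatase genes listed had a single count in any library: *Alpi*, *Alppl2* and *Akp3* each had 0 counts, where 3 counts would have been 0.0450 to 0.0630 CPM depending on the library.

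*Phospho1* (ENSMUSG00000050860, chr11:95824499-95832140, plus strand) encodes the phosphatase that frees phosphate from phosphocholine and phosphoethanolamine inside matrix vesicles. It was the lowest-counted of the 10 genes, at 7.98, 9.94 and 11.6 CPM in control replicates 1, 2 and 3 and at 6.40, 7.34 and 7.16 CPM in Atrx-cKO. All 3 Atrx-cKO libraries were below all 3 controls. Its fitted log2 fold change was -0.50 (SE 0.16, 95% interval -0.87 to -0.12), with an unadjusted p of 0.0169 and an adjusted p of 0.992 in edgeR. These values came from 374, 419 and 422 counts in Atrx-cKO and 455, 662 and 550 in control. Of the 2029 exonic bases of *Phospho1*, 1818 (89.6%) are shared with an annotated transcript of *Zfp652* on the same strand and 1708 (84.2%) with *Abi3* on the other strand. Reads on shared bases could be left out or be given to a neighbor in counting, so the level of *Phospho1* is uncertain and is not given per length.

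The 250 bases that precede the start of *Phospho1* are printed because it was among the 3 genes whose groups did not overlap. The stretch (chr11:95824250-95824499, plus strand, GRCm38.p6, RefSeq) is 75.6% G and C with 34 CpG dinucleotides, and the capitals mark its match to the CCAAT box, read here from the other strand as ATTGG, which starts 40 bases before the start.
Phospho1: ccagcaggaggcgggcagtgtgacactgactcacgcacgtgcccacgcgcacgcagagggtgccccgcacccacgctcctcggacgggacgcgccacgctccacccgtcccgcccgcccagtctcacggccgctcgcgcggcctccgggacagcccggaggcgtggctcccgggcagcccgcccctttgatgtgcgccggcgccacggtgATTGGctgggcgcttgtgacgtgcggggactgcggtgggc

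*Smpd3* (ENSMUSG00000031906, chr8:106252548-106337988, minus strand) encodes neutral sphingomyelinase 2, which cuts sphingomyelin into ceramide and phosphocholine and whose loss in mice leaves bone poorly mineralized. It stood at 314, 533 and 536 CPM in control replicates 1, 2 and 3 and at 293, 448 and 384 CPM in Atrx-cKO. Replicate 1 was the lowest library of each group, and the groups overlapped. In edgeR the log2 fold change came to -0.30 (SE 0.23, 95% interval -0.84 to 0.25, edgeR adjusted p = 0.992).

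On the pyrophosphate side, *Enpp1* (ENSMUSG00000037370, chr10:24637914-24712159, minus strand) encodes the ectoenzyme that makes pyrophosphate from extracellular ATP. It stood at 88.1, 86.8 and 92.9 CPM in control and at 72.2, 74.3 and 93.8 CPM in Atrx-cKO replicates 1, 2 and 3. Atrx-cKO replicate 3 was the highest library of all 6 and the other two were the lowest, and the controls lay close together between them. *Enpp1* was the only gene of the 10 whose highest-to-lowest ratio among libraries was larger in Atrx-cKO than in control. The fit gave a log2 fold change of -0.16 (SE 0.11, 95% interval -0.41 to 0.10, edgeR adjusted p = 0.992).

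*Ank* (ENSMUSG00000022265, chr15:27466677-27594909, plus strand) encodes the membrane protein through which cells raise extracellular pyrophosphate. It stood at 138, 147 and 184 CPM in control replicates 1, 2 and 3 and at 110, 115 and 136 CPM in Atrx-cKO. All 3 Atrx-cKO libraries were below all 3 controls, with control replicate 1 close above Atrx-cKO replicate 3. The log2 fold change was -0.38 (SE 0.13, 95% interval -0.68 to -0.068), with an unadjusted p of 0.0231 and an adjusted p of 0.992 in edgeR. Among the 3 genes whose groups did not overlap, *Ank* thus supplies the inhibitor, *Phospho1* releases phosphate and *Ibsp* encodes a matrix protein.

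The phosphate transporters carry phosphate into cells together with sodium. *Slc20a1* (ENSMUSG00000027397, chr2:129198764-129211616, plus strand; PiT-1) stood at 83.6, 55.1 and 59.0 CPM in control replicates 1, 2 and 3 and at 69.2, 64.9 and 65.1 CPM in Atrx-cKO. All 3 Atrx-cKO libraries fell inside the range of the controls, in which replicate 1 was the highest of all 6 libraries. Its fitted log2 fold change was 0.011 (SE 0.15, 95% interval -0.34 to 0.36, edgeR adjusted p = 0.998).

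*Slc20a2* (ENSMUSG00000037656, chr8:22476788-22569612, plus strand; PiT-2) stood at 114, 206 and 190 CPM in control replicates 1, 2 and 3 and at 158, 156 and 146 CPM in Atrx-cKO. The Atrx-cKO libraries again lay within the range of the controls, but here control replicate 1 was the lowest of the 6. The controls spanned a 1.81-fold range and the Atrx-cKO libraries a 1.09-fold range. In edgeR the log2 fold change came to -0.15 (SE 0.20, 95% interval -0.62 to 0.32, edgeR adjusted p = 0.992). *Xpr1*, which encodes the phosphate exporter, stood at 144, 135 and 162 CPM in control and at 121, 123 and 143 CPM in Atrx-cKO, with a log2 fold change of -0.19 (SE 0.10, edgeR adjusted p = 0.992) and overlapping groups. The type II sodium-phosphate cotransporters, known from kidney and gut, were too rare to test: *Slc34a1* had 41 counts over all 6 libraries, *Slc34a2* had 0 and *Slc34a3* had 2.

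*Spp1* and *Ibsp* belong to the SIBLING genes, which lie on the plus strand of chromosome 5 in the order *Dspp*, *Dmp1*, *Ibsp*, *Mepe* and *Spp1* between positions 104170712 and 104441050. *Spp1* (ENSMUSG00000029304, chr5:104435118-104441050) encodes osteopontin, which binds mineral, slows crystal growth and anchors osteoclasts. It stood at 2240, 2803 and 3225 CPM in control replicates 1, 2 and 3 and at 2579, 2158 and 3054 CPM in Atrx-cKO. The ranges of the groups overlapped over most of their length. The fit gave a log2 fold change of -0.086 (SE 0.18, 95% interval -0.50 to 0.33, edgeR adjusted p = 0.994). Of the exonic bases of *Spp1*, 309 (18.8%) are shared with the same-strand gene *Gm42793*, which had 3531 counts where *Spp1* had 921939.

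*Ibsp* (ENSMUSG00000029306, chr5:104299171-104311469) encodes bone sialoprotein, which can nucleate mineral and is a marker of maturing osteoblasts. It stood at 1307, 1978 and 2114 CPM in control replicates 1, 2 and 3 and at 1264, 1238 and 1293 CPM in Atrx-cKO. The Atrx-cKO libraries lay within a 1.04-fold range below all controls, but control replicate 1 was just above them and apart from control replicates 2 and 3. The group means were 1265 ± 27.1 CPM in Atrx-cKO and 1800 ± 432 CPM in control (SD, n = 3 each). The log2 fold change was -0.51 (SE 0.18, 95% interval -0.92 to -0.096), which is 29.7% lower, with an unadjusted p of 0.0221 and an adjusted p of 0.992 in edgeR. DESeq2 gave *Ibsp* an adjusted p of 0.358, *Phospho1* 0.608 and *Ank* 0.735.

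The upstream sequence of *Spp1*, the most abundant of the genes per length, is shown for comparison with that of *Phospho1*. Capitals mark matches in the 250 bases before the first RefSeq start of *Spp1* (chr5:104434861-104435110, plus strand, GRCm38.p6). In order along the strand, the first is a TATA box match, 211 bases before the start. Then come 2 matches to the RUNX motif TGNGGTT read from the other strand (AACCACA and AACCTCA), 129 and 75 bases before the start. The last is a CCAAT box match read from the other strand (ATTGG), 46 bases before the start.
Spp1: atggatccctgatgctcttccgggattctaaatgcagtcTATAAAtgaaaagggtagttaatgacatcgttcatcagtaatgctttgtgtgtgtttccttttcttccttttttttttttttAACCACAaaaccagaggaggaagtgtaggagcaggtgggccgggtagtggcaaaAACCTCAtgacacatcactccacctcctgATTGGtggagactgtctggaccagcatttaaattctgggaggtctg

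The motifs were searched on both strands of the 250 bases before the start of 32851 RefSeq promoters: TGTGGT was present in 14%, TGNGGTT, which can overlap it, in 12.6%, TATAAA in 12.4% and CCAAT in 33.8%. RefSeq promoters were matched for 8 of the 10 genes. Besides *Spp1*, TGTGGT was found for *Enpp1*, 144 bases before the start, and for *Slc20a1*, 77 bases before the first of its 2 starts. TGNGGTT was found for *Slc20a1* too, 77 bases before the first start and 39 bases before the second. A match is a run of letters and was not tested as a binding site.

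Of the other SIBLING genes, *Dmp1*, which encodes an osteocyte matrix protein, stood at 541, 644 and 741 CPM in control and at 550, 592 and 679 CPM in Atrx-cKO, with a log2 fold change of -0.082 (SE 0.14, edgeR adjusted p = 0.992). Its groups overlapped nearly completely. *Mepe*, which encodes an osteocyte phosphoglycoprotein, stood at 283, 137 and 132 CPM in control replicates 1, 2 and 3 and at 103, 145 and 87.9 CPM in Atrx-cKO, with a log2 fold change of -0.71 (SE 0.32, 95% interval -1.46 to 0.030, edgeR adjusted p = 0.992). Here control replicate 1 was far above the other controls, where for *Ibsp* and *Spp1* it was the lowest control. *Dspp*, which encodes the dentin sialophosphoprotein precursor, had 1 count in all 6 libraries together.

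**Figure D2:**
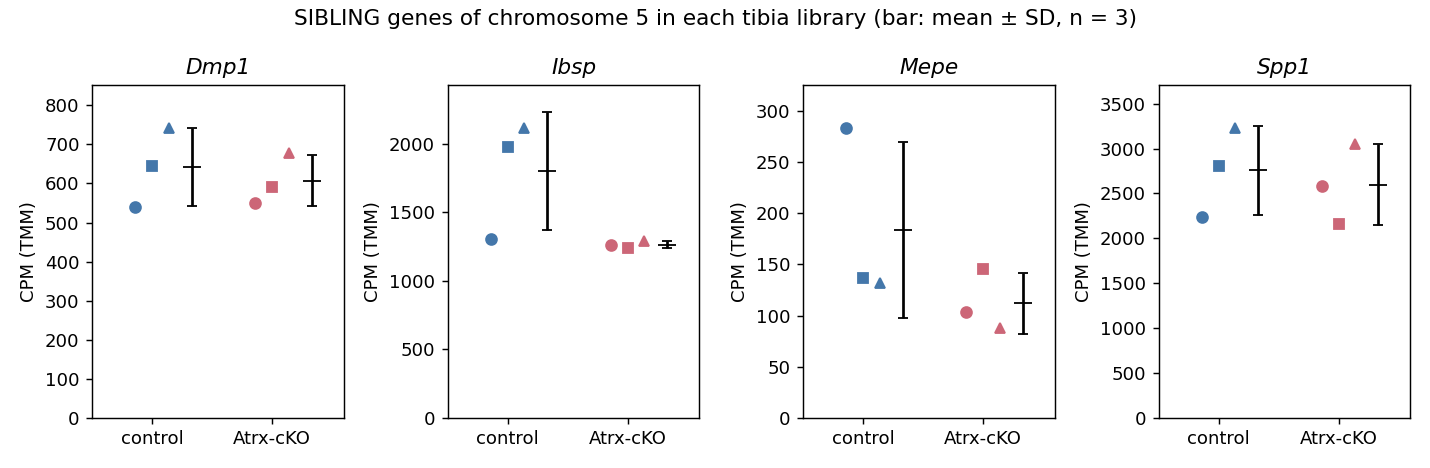
CPM after TMM scaling (vertical axes, each from 0) of *Dmp1*, *Ibsp*, *Mepe* and *Spp1*, in their order on chromosome 5, in the 3 control and 3 Atrx-cKO libraries (circle, square, triangle: replicates 1, 2, 3), with mean ± SD. Control replicate 1 is the highest library for *Mepe* (283 CPM) and the lowest control for the other three, and *Ibsp* alone shows groups that do not overlap.

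*Ifitm5* (ENSMUSG00000025489, chr7:140948958-140950291, minus strand) encodes an osteoblast membrane protein that is mutated in a form of osteogenesis imperfecta. It stood at 19.5, 31.9 and 26.7 CPM in control replicates 1, 2 and 3 and at 22.8, 23.4 and 22.6 CPM in Atrx-cKO. The Atrx-cKO libraries were nearly equal and lay inside the 1.63-fold range of the controls. Its fitted log2 fold change was -0.18 (SE 0.17, 95% interval -0.57 to 0.20, edgeR adjusted p = 0.992).

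**Figure D3:**
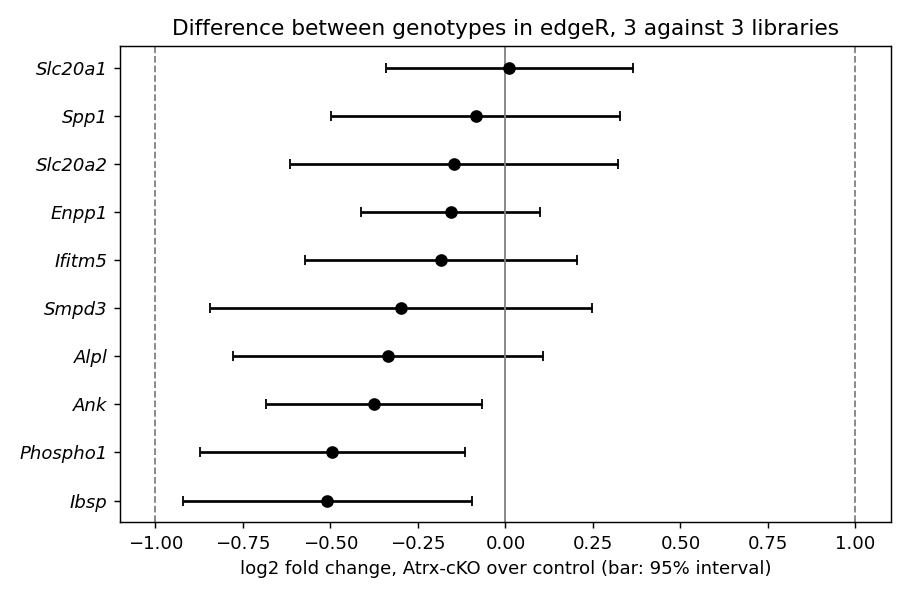
Log2 fold change, Atrx-cKO over control, of the 10 mineralization genes in edgeR (points) with 95% intervals unadjusted for the number of genes (bars), from 3 libraries a group. The intervals of *Ibsp*, *Phospho1* and *Ank* lie under 0, those of the other 7 genes span 0, and all lie inside the dashed lines at a log2 fold change of 1 in size.

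Levels per length, as CPM per kb of exonic bases not shared with another gene on the same strand, put the 9 genes other than *Phospho1* in a clear order in the controls. *Spp1* was the highest, with a median of 2093 and a range of 1673 to 2408 CPM per kb, and *Ibsp* followed at a median of 956 (632 to 1022). *Alpl* had a median of 268 (172 to 290) and *Smpd3* of 102 (60.0 to 102.4). The lower members of the order were *Ifitm5* (median 49.7), *Ank* (41.4), *Slc20a2* (30.5), *Slc20a1* (10.6) and *Enpp1* (8.59 CPM per kb). *Ifitm5* and *Ank* overlapped in range and cannot be ordered, while every other neighboring pair in this order was apart in all 3 control libraries. The matrix proteins and *Alpl* thus stood above the transporters and the pyrophosphate suppliers.

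Ratios within a library compared genes of opposed or linked roles, each as log2 of the CPM ratio with 0.5 CPM added, by exact two-sided permutation tests of 3 against 3 libraries, which cannot give a p below 0.1. Of 6 ratios, *Ibsp*/*Spp1* alone was separated between groups. It stood at -0.78, -0.50 and -0.61 in control replicates 1, 2 and 3 and at -1.03, -0.80 and -1.24 in Atrx-cKO. The difference in means was -0.39, a fold of 0.761 (exact permutation p = 0.1, the smallest possible, and 0.6 after adjustment over the 6 ratios). Control replicate 1 and Atrx-cKO replicate 2 nearly met.

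*Alpl*/*Enpp1*, the enzyme that cleaves pyrophosphate over the one that makes it, was 3.28 ± 0.20 in Atrx-cKO and 3.42 ± 0.40 in control (exact permutation p = 0.7, adjusted p = 1). *Alpl*/*Ank* was 2.69 ± 0.15 and 2.63 ± 0.34 (exact permutation p = 0.9, adjusted p = 1), although *Ank* alone was lower in every Atrx-cKO library. *Alpl*/*Phospho1* was 6.70 ± 0.016 and 6.55 ± 0.23 (exact permutation p = 0.4, adjusted p = 1). The 3 Atrx-cKO libraries were nearly identical in this last ratio. *Phospho1*/*Smpd3* was -5.63 ± 0.22 and -5.46 ± 0.23 (exact permutation p = 0.5, adjusted p = 1). The level of *Phospho1* is uncertain because of its shared exonic bases, and so is the size of the ratios that hold it. *Slc20a1*/*Slc20a2* was -1.20 ± 0.051 and -1.34 ± 0.78 (exact permutation p = 1, adjusted p = 1), with control replicate 1 at -0.44 against -1.89 and -1.68 in the other controls.

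**Figure D4:**
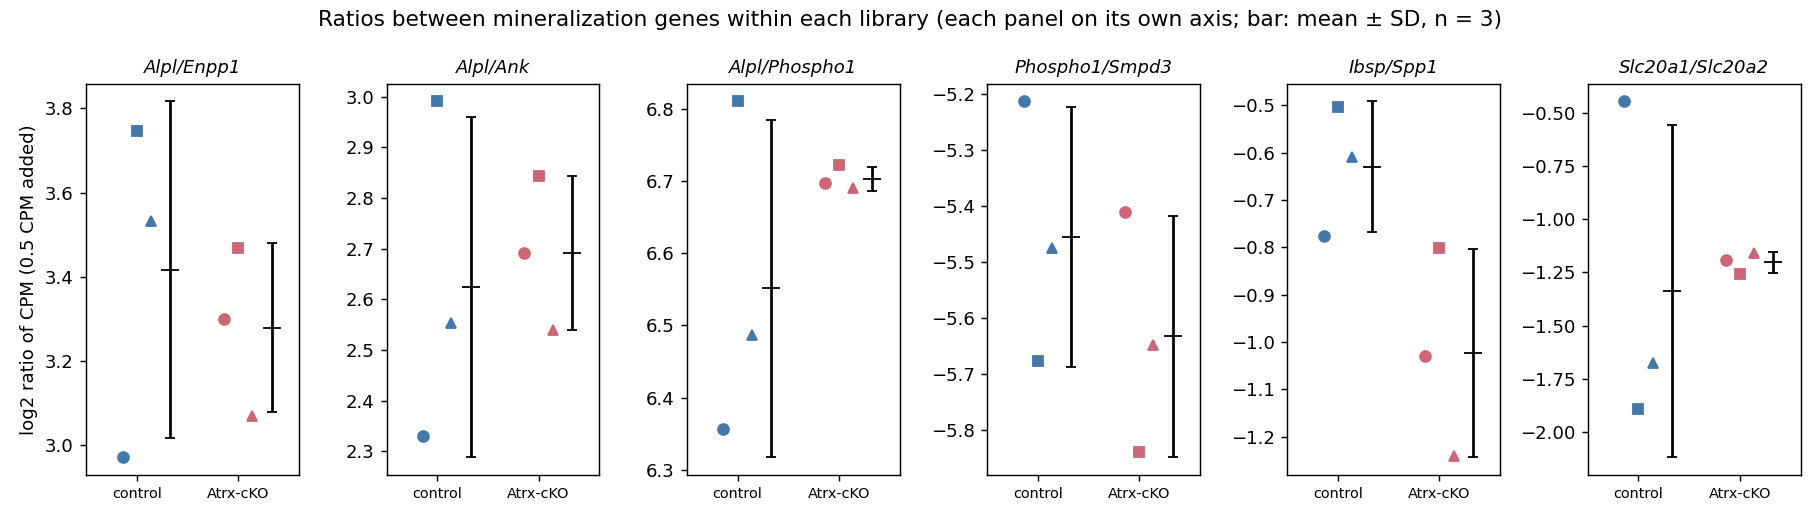
Log2 ratio of CPM (0.5 CPM added) between pairs of mineralization genes within each control and Atrx-cKO library (circle, square, triangle: replicates 1, 2, 3), each panel on its own axis, with mean ± SD of 3 libraries. The groups are separated in *Ibsp*/*Spp1* and overlap in the other 5 ratios.

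Control replicate 1 stood apart from the other controls in these genes. It was the lowest control in 8 of the 10 genes, against 38.0% of all genes tested, and lay under every Atrx-cKO library in 3 of them. Control replicates 2 and 3 were both above every Atrx-cKO library in 7 of the 10 genes, against 14.2% of all genes tested, and both below in 1 (*Slc20a1*), against 13.7%. In 9 of the 10 genes the highest-to-lowest ratio was larger among the controls than among the Atrx-cKO libraries. The share of all genes was not computed for this count or for the 3 genes with control replicate 1 lowest of all. Over all genes with enough counts, pairs of control libraries also differed more than pairs of Atrx-cKO libraries. The chi-square per degree of freedom was 91.4 to 137 against 15.8 to 51.4. Control replicates 2 and 3 gave the 91.4, so the wider spread of the controls was not that of control replicate 1 alone. This value grows with the number of counts and is weighted to abundant genes. With control replicate 1 left out, 7 genes were lower at an unadjusted p under 0.05 in edgeR (5.59% of all genes) and 1 was higher (4.13% of all genes), and the median log2 fold change of the 10 was -0.41. The higher gene was *Slc20a1*, at a log2 fold change of 0.22 (SE 0.075, edgeR adjusted p = 0.433). The lowest edgeR adjusted p was then 0.0967, for *Ibsp*, with a log2 fold change of -0.69 (SE 0.083). Over the fits that left out 1 library at a time, the number of genes lower at an unadjusted p under 0.05 in edgeR was 0, 1 and 4 when Atrx-cKO replicates 1, 2 and 3 were dropped, and 2 and 1 when control replicates 2 and 3 were dropped.

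DESeq2 without control replicate 1, a fit added after that library was seen to stand apart, gave 4 of the 10 genes an adjusted p under 0.05, against 2.96% of all genes. They were *Ibsp* at a log2 fold change of -0.69 (adjusted p = 6.6e-13), *Alpl* at -0.53 (adjusted p = 0.000191), *Slc20a2* at -0.37 (adjusted p = 0.0125) and *Phospho1* at -0.62 (adjusted p = 0.0129). None of these reached a log2 fold change of 1 in size, and without any other single library no gene of the 10 had an adjusted p under 0.05 in either tool. Control replicate 1 stood apart by its low values in most of these same genes, so leaving it out raises their control means. The p-values and counts without it, in both tools, are thus no separate test of these genes, nor is the contrast with 2.96%. Single libraries also set the size of other differences. In edgeR, the log2 fold change of *Alpl* was -0.53 without control replicate 1 and -0.19 without control replicate 2. That of *Ifitm5* was -0.35 and -0.011 without the same libraries. For *Smpd3* the edgeR value ran from -0.51 without control replicate 1 to -0.15 without Atrx-cKO replicate 1. For *Enpp1* it ran from -0.29 without Atrx-cKO replicate 3 to -0.088 without Atrx-cKO replicate 1. *Ibsp*, *Phospho1* and *Ank* stayed under 0 in every such fit of either tool, as did *Alpl*, *Enpp1*, *Smpd3* and *Ifitm5*. For *Ibsp*, *Phospho1* and *Ank* this sign was all but fixed in advance, since their groups did not overlap with all libraries in. The values of *Ibsp*, *Phospho1* and *Ank* nearest to 0 were -0.385, -0.372 and -0.251, all in DESeq2 without control replicate 3. Nothing in the labels sets control replicate 1 apart, and its values remain in all results above.

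The marker genes of osteoblasts varied across libraries along with most of the 10 genes. The 8 osteoblast markers, *Col1a1* and *Runx2* among them, summed to 122400, 207500 and 187200 CPM in control replicates 1, 2 and 3 and to 129000, 130400 and 134500 CPM in Atrx-cKO. All 8 had a fitted log2 fold change under 0, with a median of -0.27, and none was called changed. Control replicate 1 was thus the lowest library in this sum, most of which was *Col1a1*, *Col1a2* and *Sparc*. Atrx-cKO replicate 1 was the lowest library for *Sp7*, *Bglap*, *Bglap2* and *Col22a1*, and control replicate 1 for the other markers. The mean log2 level of the list was 11.26 in both of these libraries. Measured against the mean log2 level of the osteoblast list in the same library, 5 of the 10 genes were lower in Atrx-cKO on average and 5 were higher, and no gene kept groups without overlap. The difference in mean log2 level of *Alpl* went from -0.30 to -0.057 on this scale and that of *Ibsp* from -0.48 to -0.23. The SD over the 6 libraries became smaller for 8 of the 10 genes, *Enpp1* and *Slc20a1* being the exceptions, and for *Alpl* it went from 0.31 to 0.075 on the log2 scale. The part of osteoblast content in the differences was not tested.

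**Figure D5:**
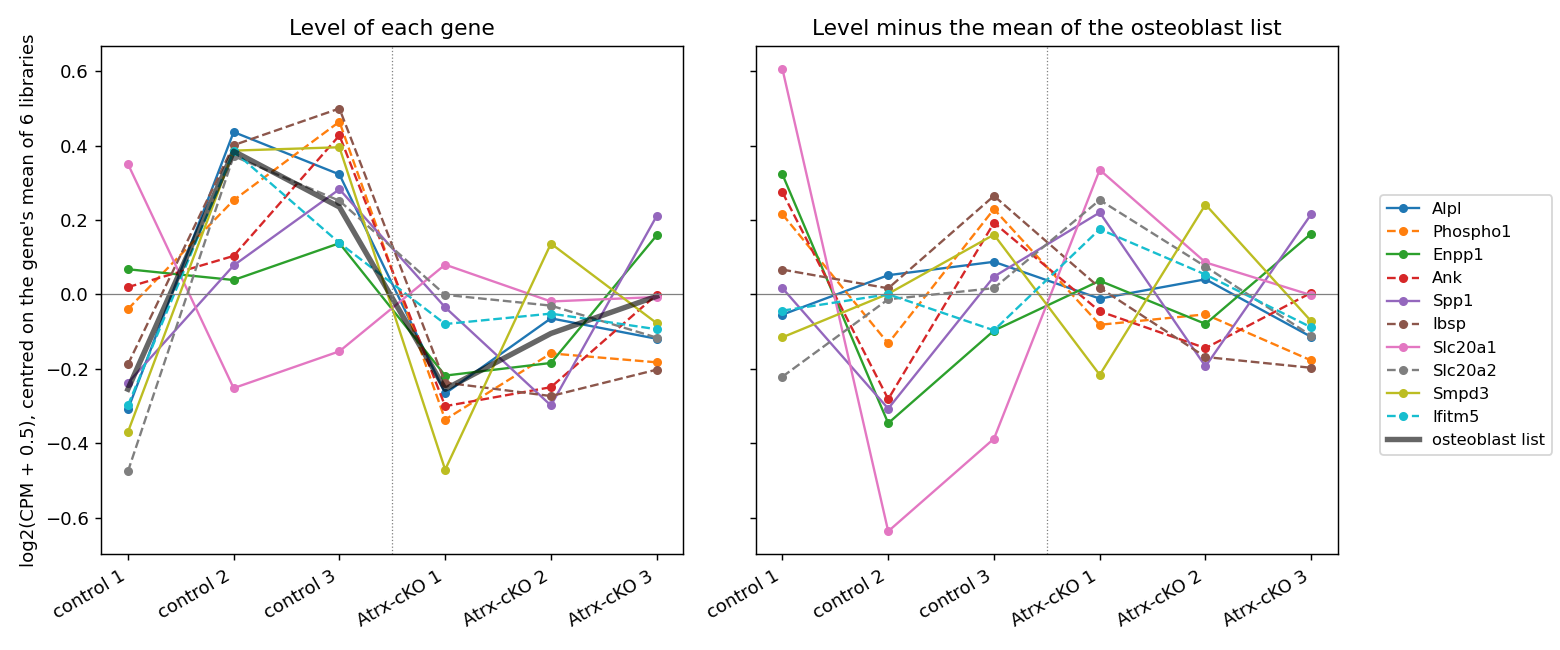
Log2(CPM + 0.5) of the 10 mineralization genes in each library, centred on each gene's mean over the 6 libraries (left; thick line, mean of the osteoblast list), and the same after subtracting the mean of the osteoblast list (right). Lines only join the points of a gene, and the spread of *Alpl* narrows from an SD of 0.31 to 0.075 while that of *Slc20a1* does not narrow.

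Other cell types of the tibia were measured in the same way, and no marker of any list was at 0. Osteocyte markers summed to 1107 to 1259 CPM in Atrx-cKO and 1255 to 1369 in control, and chondrocyte markers to 798 to 1166 and 1088 to 1598 CPM. Most of the chondrocyte sum was *Col2a1*, at 706 to 1074 CPM in Atrx-cKO and 1018 to 1504 in control. Of the 7 chondrocyte markers, 5 had fitted log2 fold changes above 0 and 2 under 0, with a median of 0.34. The 7 osteoclast markers, from 1998 to 2728 and 2289 to 3775 CPM, all had fitted log2 fold changes under 0, with a median of -0.41. Macrophage markers summed to 658 to 711 and 667 to 736 CPM, plasma cell markers to 343 to 379 and 355 to 382 CPM and adipocyte markers to 160 to 248 and 154 to 219 CPM. Neutrophil markers ranged from 7729 to 10650 CPM in Atrx-cKO and 6149 to 8942 in control, and erythroid markers from 3344 to 4290 and 2052 to 5458. Control replicate 1 held the 5458 CPM of erythroid markers, the highest sum of the 6 libraries, against 2052 and 2553 CPM in control replicates 2 and 3, and the part of this in its lower values for the mineralization genes was not tested. Skeletal muscle markers reached 9920 CPM in control replicate 3 against 579 to 1970 CPM in the other 5 libraries. Fitted log2 fold changes were above 0 for all 5 neutrophil markers (median 0.22) and all 6 erythroid markers (median 0.12). They were under 0 for all 6 skeletal muscle markers (median -1.58). Also under 0 were 4 of 6 osteocyte, 2 of 5 macrophage, 3 of 5 plasma cell and 3 of 5 adipocyte markers. No marker of these lists was called changed.

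The other genes of mineral deposition and phosphate handling, 46 by list, had 37 members with enough reads to test, and none was called changed in edgeR or had an adjusted p under 0.05 in DESeq2. Of the 37, 20 had a log2 fold change under 0 and 17 above, with a median of -0.028. At an unadjusted p under 0.05, 2 of the 37 were lower, against 2.05% of all genes, and 0 were higher, against 1.59%. Groups did not overlap in 2 of the 37 that were lower, against 4.01% of all genes, and in 2 that were higher, against 4.30%, so these shares were near those of all genes. *Enpp3*, which encodes a nucleotide pyrophosphatase related to *Enpp1*, stood at 10.5, 9.86 and 9.22 CPM in control and at 5.75, 7.32 and 8.35 CPM in Atrx-cKO, with a log2 fold change of -0.47 (SE 0.16, edgeR adjusted p = 0.992). *Anxa6*, which encodes a calcium-binding annexin of matrix vesicles, stood at 160, 179 and 175 CPM in control and at 153, 156 and 138 CPM in Atrx-cKO, with a log2 fold change of -0.20 (SE 0.086, edgeR adjusted p = 0.992). Both were lower in every Atrx-cKO library than in any control, by amounts that did not pass adjustment.

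*Entpd1*, which encodes CD39, an ectoenzyme that breaks down extracellular ATP, stood at 50.01, 49.95 and 43.5 CPM in control and at 53.7, 54.8 and 50.7 CPM in Atrx-cKO, with a log2 fold change of 0.15 (edgeR adjusted p = 0.992). *Chkb*, which encodes a choline kinase that makes phosphocholine, stood at 3.21, 3.39 and 2.77 CPM in control and at 3.44, 3.59 and 3.72 CPM in Atrx-cKO, with a log2 fold change of 0.20 (edgeR adjusted p = 0.992). The separation was narrow in both genes. By role, log2 fold changes were under 0 in 4 of 4 tested genes of the other SIBLING proteins and their kinase (median -0.12), 3 of 8 pyrophosphate and nucleotide enzymes (median 0.081), 7 of 10 genes of phosphocholine and sphingomyelin metabolism (median -0.029) and 2 of 3 annexins (median -0.18).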

How the data were processed

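PolyA-selected, strand-specific libraries from 3 Atrx-cKO and 3 control tibias were sequenced as paired reads. The authors deposited raw read counts per gene, 1 table a library, with 55401 Ensembl identifiers and 5 summary entries. The submitters' processing notes name GRCm38 and DESeq2; the aligner, the counting program and its strand setting are not given in the sources used here. The summary entries stayed out of library sizes and tests; reads outside any feature made up 51.6% to 52.4% of a table.

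Symbols and coordinates came from GENCODE M21 (GRCm38), which named 55141 identifiers. Groups came from the genotype label. Counts were filtered with filterByExpr, scaled by TMM and fitted over all 20636 genes kept with edgeR 4.0.16 (quasi-likelihood, R 4.3.3), with Benjamini-Hochberg adjustment; intervals are 95%. DESeq2 1.42.0 was an alternative, with other scalings, other filters, a replicate block, a muscle covariate and each library left out. Ratios used exact permutation tests and levels per length the exonic bases not shared with a gene on the same strand. The fit was tested on simulated data.

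The genes and lists were chosen with earlier results of these data known. Genes outside the 10 were named where groups did not overlap at a mean of at least 1 CPM, and all other SIBLING genes and phosphate transporters were named. For each of the 10, the gene with the smallest root mean square difference in centred log2 CPM was named. Proteins were not analysed here. An upstream sequence of 1 gene is not reported here.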

Additional observations from a re-analysis of the deposited data

How the results depend on the processing

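No gene of the 10, and none of the 37 related genes tested, was called changed under any other scaling, filter, tool, covariate, replicate block or left-out library that was run. A call needs a log2 fold change of 1 in size, and the largest of the 10 in any fit was -0.69, for *Ibsp*. DESeq2 without control replicate 1 gave 4 of the 10 and 2 of the related genes an adjusted p under 0.05. Scaling by library total alone moved the median of all genes to 0.077 and that of the 10 genes to -0.15, with 9 of 10 still under 0. With the replicate block the median was -0.22 and the lowest adjusted p 0.788. Same-numbered samples did not deviate together (correlations -0.025, 0.062 and -0.071 over 20636 genes), so the block pairs libraries only by number. With a skeletal muscle covariate all 10 genes were under 0, *Slc20a1* at -0.016. Leaving out 1 library at a time, the number of genes lower at an unadjusted p under 0.05 ran from 0 to 7 in edgeR and from 1 to 7 in DESeq2, and the number lower without overlap from 3 to 7 (2 with all libraries when scaled by library total). Log2 fold changes then ran from -0.22 to 0.029 for *Spp1* (0.034 in DESeq2), from -0.11 to 0.22 for *Slc20a1* (in DESeq2 -0.019 with Atrx-cKO replicate 1 dropped and -0.073 with control replicate 3 dropped) and from -0.37 to 0.019 for *Slc20a2* (0.018 in DESeq2). Differences in log2 ratio ran from -0.36 to 0.027 for *Alpl*/*Enpp1*, from -0.081 to 0.25 for *Alpl*/*Ank* and from -0.14 to 0.58 for *Slc20a1*/*Slc20a2*. The cause of these changes was not tested. With 3 libraries a group, exact tests could not go below p = 0.1, and *Phospho1* rested on the fewest counts of the 10 genes, 374 to 662 a library.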

Other observations

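The genes whose levels across the 6 libraries most resembled those of the 10 mineralization genes were sought by the root mean square difference in log2 CPM, each gene centred on its own mean. For *Smpd3* the nearest was *Fam198a*, at 0.020, where *Smpd3* itself varied by 0.34 about its mean. For *Alpl* it was *Chn1*, which encodes a chimaerin, at 0.031 against 0.29. *Phospho1* was nearest to *Padi2*, which encodes a peptidylarginine deiminase (0.040), *Ifitm5* to *Pgm3*, an enzyme of amino sugar synthesis (0.036), *Slc20a1* to *Fbxo7* (0.030), *Enpp1* to *Mypop* (0.035) and *Ank* to *Gm49768* (0.040). The nearest genes to *Spp1* (*4930547M16Rik*), *Ibsp* (*Foxf1*) and *Slc20a2* (*Adgrl3*) were counted at low levels, and among genes with a mean of at least 1 CPM they were *Krt222* (0.050), *Slc4a4* (0.062) and *Aldh1l2* (0.057). With 6 libraries and 20636 candidates, these are descriptions.

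Of the other IFITM genes, relatives of *Ifitm5* known as antiviral membrane proteins, 5 of 6 had log2 fold changes above 0, with a median of 0.14, and none was called changed. *Ifitm6*, named after its values were seen, stood at 216, 58.5 and 58.6 CPM in Atrx-cKO replicates 1, 2 and 3 and at 64.6, 73.2 and 44.4 CPM in control, so that 1 Atrx-cKO library was far above the other 5. Neutrophil markers summed to 10650 CPM in that library, the highest of the 6. *Enpp2* and *Fetub*, also named after their values were seen, had adjusted p of 0.0263 and 0.0205 in DESeq2 without control replicate 1, at log2 fold changes of -0.71 each, and of 0.992 each in edgeR with all libraries. *Enpp2* encodes autotaxin and *Fetub* a fetuin.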
